A study of Mus musculus with 9 samples.

Results

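Regions open only in old libraries are stretches of chromatin where a peak was called in every library from old mouse brain endothelial cells (ECs) and in no library from young ones. The broad peaks of all 9 libraries that shared at least 1 bp were merged into 92495 regions. Of these, 3520 (3.81%) had a peak in all 4 old libraries and in none of the 5 young libraries, and these 3520 regions are called members here. They were 14.8% of the 23788 regions with a peak in all 4 old libraries. The members were chosen by the peak calls themselves, so every old against young value below is a description of that choice and carries no test.

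Open chromatin was measured by Omni-ATAC-seq, an assay whose Tn5 enzyme inserts adapters where DNA is accessible, in nuclei of purified brain ECs (flow-sorted live cells, by the study's methods). Young mice gave 2 WT Cre and 3 EC-K4KO libraries, and old mice gave 2 of each genotype. EC-K4KO mice carried floxed Klf4 and the tamoxifen-inducible CDH5-CreERT2 driver, which acts in endothelium throughout the body, so Klf4 (a flow-responsive transcription factor of vascular endothelium) was deleted in peripheral ECs too. WT Cre mice carried the driver with intact Klf4, both genotypes received tamoxifen, and the study used males and females. The sources do not state whether a library came from 1 mouse or from a pool, so the spread between libraries may be technical. In such bulk libraries, fewer cells of a type and less signal per cell cannot be told apart. Library names begin with one prefix for all young and another for all old libraries, and the effects of age and of this naming series cannot be told apart.

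Open chromatin marks promoters, where transcription starts, and enhancers, which bind transcription factors and act on genes from a distance. Promoters of broadly active genes tend to be open in most cells, whereas open enhancers are more particular to a cell's type and state. In brain ECs, ETS, SOX and FOX factors hold the endothelial program, and canonical Wnt signalling through beta-catenin and the TCF/LEF factors establishes and keeps the blood-brain barrier.

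The letters of 4 of the best-ranked members are shown to let the position and motif results be read against real sequence. Each stretch lies within the bases covered by a peak in all 4 old libraries and is given 5′ to 3′ on the plus strand of GRCm38. Stra13 (chr11:120707280-120707429) lies in an intron of Aspscr1, Bloc1s5 (chr13:38593241-38593390) and Arl6ip5 (chr6:97208522-97208671) are intergenic, and Abi3bp (chr16:56501625-56501774) lies in that gene's own intron. Capitals mark motif matches on either strand, namely SP (GGGCGG) and TCF/LEF (CTTTGAT) in Stra13, the GATA factor pattern AGATAA in Bloc1s5, and NF-kB (GGNNTTTCC) and NFI (CTTGGCA) in Abi3bp. The Arl6ip5 stretch holds none of the patterns searched.
Stra13: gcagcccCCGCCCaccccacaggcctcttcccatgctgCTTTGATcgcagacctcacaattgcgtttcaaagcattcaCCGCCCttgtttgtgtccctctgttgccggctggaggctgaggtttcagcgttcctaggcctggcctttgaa
Bloc1s5: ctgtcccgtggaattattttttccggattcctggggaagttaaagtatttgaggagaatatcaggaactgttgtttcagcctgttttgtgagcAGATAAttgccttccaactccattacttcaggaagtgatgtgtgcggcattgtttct
Arl6ip5: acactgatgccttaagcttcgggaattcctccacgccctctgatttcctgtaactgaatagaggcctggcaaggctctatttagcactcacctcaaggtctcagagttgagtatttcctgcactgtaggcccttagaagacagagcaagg
Abi3bp: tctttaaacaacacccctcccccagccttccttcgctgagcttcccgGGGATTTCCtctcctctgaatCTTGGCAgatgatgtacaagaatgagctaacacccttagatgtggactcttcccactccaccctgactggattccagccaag

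Further stretches are shown for Lef1, a nuclear effector of Wnt signalling with 6 members, and for Vwf, the gene of the clotting factor that ECs store and release, with 4 members. These genes were picked for printing after their values were seen. For Lef1 they are chr3:131064545-131064694 and chr3:131014138-131014287, which are intergenic and lie upstream of the gene. For Vwf they are the promoter (chr6:125552908-125553057) and an intron (chr6:125594932-125595054). Capitals mark SOX (ACAAAG) and NF-kB in the Lef1 stretch of best rank, ETS of the ERG type (ACAGGAAG) in the upstream stretch, then TEAD (GGAATG) in the Vwf promoter, and FOX (TGTTTAC) and SPI1 (GAGGAAGT) in the Vwf intron. The ERG and SPI1 patterns share the letters GGAAG, and a match is a description of the letters and not evidence of binding.
Lef1, best-ranked: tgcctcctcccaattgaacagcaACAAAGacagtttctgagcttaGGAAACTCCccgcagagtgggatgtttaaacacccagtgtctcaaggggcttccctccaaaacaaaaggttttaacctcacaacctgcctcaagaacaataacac
Lef1, upstream: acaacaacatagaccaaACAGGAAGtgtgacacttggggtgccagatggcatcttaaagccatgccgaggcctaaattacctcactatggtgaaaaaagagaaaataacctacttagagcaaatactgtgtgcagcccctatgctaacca
Vwf, promoter: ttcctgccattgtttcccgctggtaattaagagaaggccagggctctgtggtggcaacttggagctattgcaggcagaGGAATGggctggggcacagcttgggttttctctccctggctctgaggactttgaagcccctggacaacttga
Vwf, intron: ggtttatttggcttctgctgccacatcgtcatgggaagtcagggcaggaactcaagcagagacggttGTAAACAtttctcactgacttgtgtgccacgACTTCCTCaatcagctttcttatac

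Peaks were ranked within each library by the peak caller's p value, so that rank 0% is the strongest end of a list. The members were absent from the strongest peaks of every old list. No member peak reached the best 11.4% of a list, and the mean rank of a member over the 4 old libraries ran from 18.1% to 89.8% with a median of 55.2%. The median rank of member peaks was 48.3% and 63.6% in old WT Cre and 49.99% and 56.3% in old EC-K4KO. Peaks in regions shared by all 9 libraries were far stronger, with median ranks of 6.24% to 8.38%. Peaks in regions of no young and only 1 to 3 old libraries were weaker, with median ranks of 78.0% to 86.0%. In all, 462 members ranked better than 50% in all 4 lists (13.1%), and 4 lay in the best 25% of all 4.

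**Figure D1:**
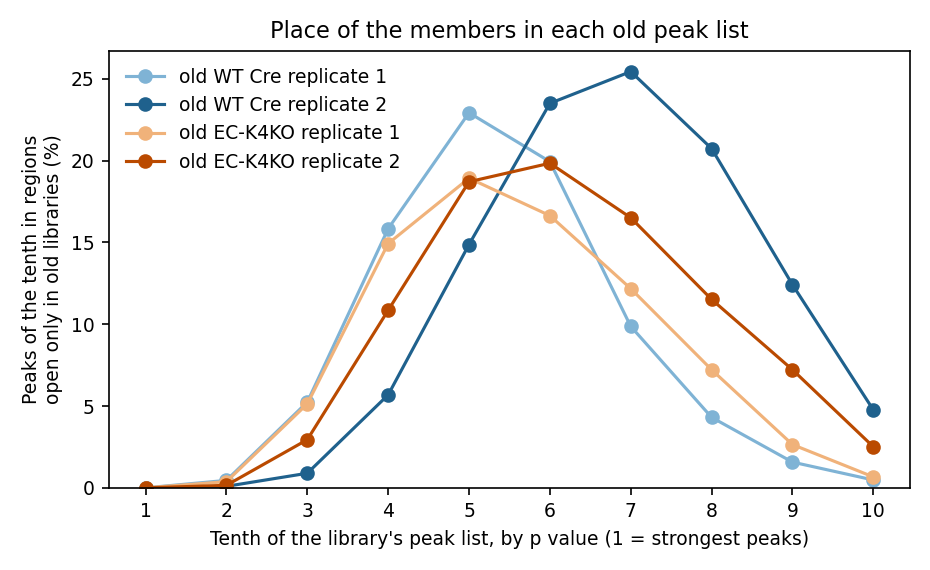
Share of peaks that belong to members (y axis, %) in each 10% step of the peak list of each old library (x axis, step 1 holds the strongest peaks by p value). The share is 0 in step 1 of all 4 libraries and is highest in step 5 (replicate 1 of both old genotypes), step 6 (old EC-K4KO replicate 2) or step 7 (old WT Cre replicate 2), where it reaches 25.4%.

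The lists differed in length with age, which bears directly on the rule. Young lists held 6157 and 9598 peaks in WT Cre and 23848, 25309 and 27992 in EC-K4KO, and old lists held 43893, 32555, 45026 and 39079. No young list was as long as any old list, and the depth behind them is unknown. When all 9 lists were cut to their 6157 strongest peaks, 128 regions met the rule and 0 of them held a member. When only the old lists were cut, to the 27992 strongest peaks, 2185 members remained (62.1%). The reverse pattern, a peak in all 5 young and in no old library, was found in 1 region.

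Just outside the rule on the young side were 3355 regions with a peak in all 4 old libraries and in a single young library. That young library was EC-K4KO replicate 3 for 2129 of them and EC-K4KO replicate 2 for 1037, whereas young WT Cre replicates 1 and 2 accounted for 9 and 30. The young peaks in these regions were weak ones, with median ranks of 63.8% to 89.4% of their own lists. Just outside on the old side were 3891 regions with no young peak and a peak in 3 old libraries, most of them without a peak in old WT Cre replicate 2 (1951) or replicate 1 (1464). The number of members therefore rests on particular libraries and was 5652 without young EC-K4KO replicate 3 and 5474 without old WT Cre replicate 2.

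**Figure D2:**
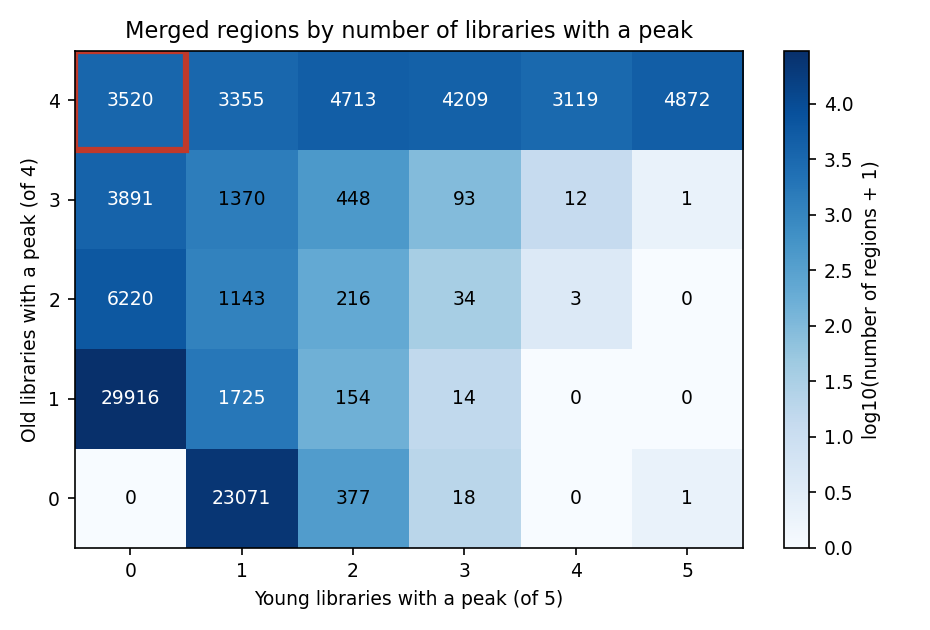
Number of merged regions by how many old libraries (y axis, of 4) and young libraries (x axis, of 5) had a peak in them, with colour on a log10 scale. The 3520 members are framed, and the 4 cells with 4 old and 1 to 4 young libraries hold 3119 to 4713 regions each.

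The members had modest folds within the old lists, and 2512 of them (71.4%) kept a q under 0.01 in all 4. The fold, which is the signal of a peak over the local background of its own library, had a median of 3.54 and 4.07 in old WT Cre and 4.81 and 5.05 in old EC-K4KO. In 3010 members (85.5%) the fold in all 4 old libraries was above 2.86, the highest of the lowest folds among the 5 young lists. Only 316 (8.98%) were above 4.67, the highest median fold among the young lists, in all 4. The folds of a member lay within 1.5 times of each other in 1624 members (46.1%). Folds of different libraries have different backgrounds and are set side by side here as values.

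Members were often near chromatin that was open in young libraries as well. The median gap between a member and the nearest young peak was 9290 bp, 1854 members (52.7%) had one within 10 kb, and 175 had one within 1 kb. Members also lay near each other, with 1259 (35.8%) within 50 kb of another member. These distances were summarised for members only, and whether other regions lie as near was not tested. On autosomes, 13.0% to 16.5% of the regions open in all 4 old libraries were members, and on the X chromosome 13.4% were (74 of 552).

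Members lay mainly in introns and between genes. Of the 3520, 1638 were intronic (46.5%), 1476 intergenic (41.9%), 206 promoter-TSS (5.85%), 157 exonic (4.46%) and 43 at transcript ends (1.22%), by the authors' annotation of the merged peaks. Promoter-TSS made up 29.4% of the regions open in all 4 old and 1 to 4 young libraries and 63.1% of those open in all 9. The median distance of a member to the nearest transcription start site (TSS) was 25790 bp, against 8951 bp and 181 bp in those classes. The median was larger over all regions (33444 bp) and in regions of no young and 1 to 3 old libraries (45142 bp). Of all regions, 46.7% were intergenic, 36.9% intronic and 10.3% promoter-TSS.

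Position was not used by the rule and was compared within each old library, member peaks against all its other peaks. The promoter-TSS share of member peaks was 5.99% and 6.07% in old WT Cre and 5.70% and 6.01% in old EC-K4KO, against 19.9%, 27.6%, 20.3% and 23.1% of other peaks. It was lower in 4 of 4 libraries, with a difference of -16.8 ± 3.44 percentage points (mean ± SD, n = 4, exact sign-flip permutation test, two-sided p = 0.13, adjusted p = 0.14 over 26 measures). The smallest p that 4 libraries allow is 0.13, so no measure of this family could pass 0.05, and the same regions enter in every library. The intron share was higher by 11.4 ± 2.86 points and the intergenic share by 7.60 ± 4.50 points, each in 4 of 4 libraries (both exact p = 0.13, adjusted p = 0.14). Against regions of no young and 1 to 3 old libraries the promoter-TSS difference changed sign, to 2.86 points higher in members. The intergenic difference changed sign as well, to -6.00 points, lower in 4 of 4 libraries. The intron difference was 3.11 points there, higher in 2 libraries and lower in 2. Among peaks of like rank, compared within 10% steps of each list, the promoter-TSS difference was -6.13 points.

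**Figure D3:**
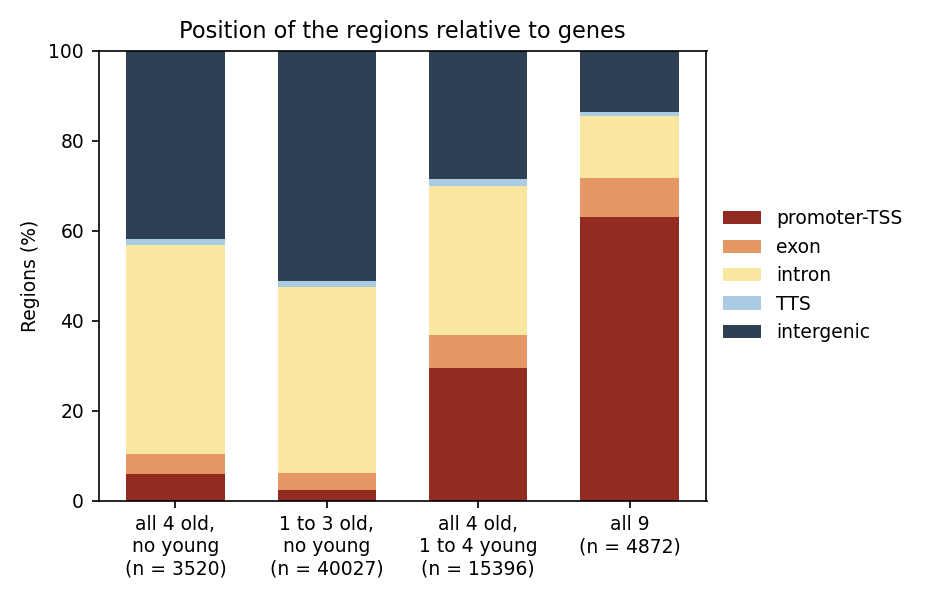
Share of regions (y axis, %) in each annotation class for 4 sets of regions (x axis, with their number). Members (left bar) have 5.85% promoter-TSS, between 2.44% in regions of 1 to 3 old libraries and 29.4% and 63.1% in regions that young libraries share.

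The promoters among the members included several of known function. The promoter of Scarf1, an endothelial scavenger receptor, ranked best, with folds of 5.80 and 6.48 in old WT Cre and 6.99 and 5.33 in old EC-K4KO. The groups overlapped there. Next by rank were promoter peaks assigned to Trpt1 (at Nudt22), Disp2, Eif2d (a translation factor) and Sarm1 (an enzyme of axon degeneration), with mean ranks of 25.7%, 27.2%, 27.5% and 30.6%. The promoter of Isg15, an interferon-stimulated ubiquitin-like gene, had folds of 3.25, 3.51, 3.74 and 4.04. The Vwf promoter had folds of 3.82 and 4.72 in old WT Cre and 6.47 and 5.61 in old EC-K4KO, with the nearest young peak 19059 bp away. The groups did not overlap at either promoter in fold as deposited, where both old EC-K4KO folds exceeded both old WT Cre folds in 71.0% of all 23788 regions open in the 4 old libraries.

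Beyond promoters, the best-ranked members were scattered over the genome. The member assigned to Stra13, in an intron of Aspscr1, ranked best of all, with folds of 8.10, 8.56, 8.36 and 9.75 in old WT Cre replicates 1 and 2 and old EC-K4KO replicates 1 and 2. The Bloc1s5 member had folds of 7.09, 8.77, 10.3 and 10.7, and the Arl6ip5 member 4.55, 4.78, 4.95 and 5.20. In both, the old EC-K4KO libraries were the higher ones as deposited, as they were in 71.0% of all 23788 regions. After centring on each library's median, the log2 differences were 0.03 for Bloc1s5 and -0.25 for Arl6ip5. The Abi3bp member, in intron 1 of a gene of an extracellular matrix protein, had folds of 8.14, 7.71, 10.95 and 8.83. Sos2 (a Ras exchange factor), Mgst2 (a glutathione transferase), Bach1 (a repressor of oxidative stress genes), Slc27a6 (a fatty acid transporter) and Cobll1 completed the best 10, with mean ranks of 21.8% to 23.7%. The widest members lay near S100a2 (2264 bp), Mir1894 (2169 bp) and Eif3k (2079 bp), with mean ranks of 72.6%, 79.8% and 63.5%.

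The members lay nearest to 2751 genes, and 556 of these had 2 or more. The genes with the most were Lef1, Foxp1 (a forkhead transcription factor) and Zfpm1 (a cofactor of GATA factors), with 6 each. They were followed, with 5 each, by Apcdd1 (a Wnt inhibitor of brain ECs), Jag1 (a Notch ligand), Calcrl (the receptor for adrenomedullin and CGRP), Dach1 (a transcription factor of arterial growth), Arl4a, B3gnt2, Ldlrad3, Nhsl1, Zak and 4930543E12Rik. Genes in wide intergenic stretches can be nearest to more regions, and the number of regions assigned to these genes ranged from 12 for 4930543E12Rik to 47 for Foxp1. Lef1 had 32 regions, 15 of them open in all 4 old libraries. The nearest gene is an assignment by distance and not a measured target.

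Wnt and beta-catenin genes held the most members of the 20 gene lists examined. Of the 211 regions nearest to the list's 20 genes, 31 were members (14.7%, against 3.81% of all regions), and 13 genes had at least 1. Of its 94 regions open in all 4 old libraries, 33.0% were members, against 14.8% over all such regions. Only the astrocyte list had a higher share there, at 34.8% of 23 regions. These counts are descriptions, since the rule used the calls they rest on. The best-ranked of the 6 Lef1 members, 45659 bp upstream of the TSS, had folds of 7.26 and 7.85 in old WT Cre and 10.02 and 7.91 in old EC-K4KO. The other 5 Lef1 members had mean ranks of 51.9% to 72.1%, and 1 of all 6 lay in an intron while 5 were intergenic. Axin2, a feedback inhibitor of the pathway, had 3 members, the best of them with folds of 4.31, 5.14, 5.10 and 5.21.

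Receptors and other parts of the pathway were among the members too. Reck, which with Gpr124 relays the Wnt7 signal in brain ECs, had 3 intronic members, the best with folds of 4.32, 5.09, 5.22 and 8.88. Old EC-K4KO replicate 2 stood out there. Fzd6 (a Wnt receptor), Lrp5 and Lrp6 (co-receptors) and Znrf3 (a ubiquitin ligase that removes Wnt receptors) had 2 each. Tspan12 (a coactivator of Norrin signalling), Nkd1 (an inhibitor), Tcf7 and Tcf7l1 (TCF/LEF factors) had 1 each. The Fzd6 member of better rank had folds of 4.64 and 4.38 in old WT Cre and 9.17 and 7.15 in old EC-K4KO. The groups did not overlap, with both old EC-K4KO folds higher as in 71.0% of all 23788 regions. After centring on each library's median, the Fzd6 log2 difference was 0.47 (adjusted p = 0.170 by limma). Sox17, an endothelial factor on this list and on the endothelial one, had 2. Genes of the list without a member were Ctnnb1 (beta-catenin), Tcf7l2, Fzd4, Adgra2 (the gene of Gpr124), Apc, Gsk3b and Notum. None of the 31 was a promoter-TSS region.

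Notch genes had 14 members among 175 regions (8%, against 3.81% of all regions). Of their 63 regions open in all 4 old libraries, 22.2% were members, against 14.8% over all such regions. Jag1 held 5, at 20519 bp to 443939 bp from its TSS, and Notch1 held 2. The Jag1 member of best rank had folds of 2.91 and 4.02 in old WT Cre and 3.92 and 5.48 in old EC-K4KO, which overlapped. The receptors Notch2 and Notch4 and the target genes Hes1, Hey1 and Hey2 had 1 each, as did the protease gene Adam10 and Lfng, which modifies Notch receptors.

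Endothelial identity genes had 20 members among 271 regions (7.38%), or 14.9% of those open in all 4 old libraries, close to the 14.8% over all regions. Vwf had 4, Tek (the angiopoietin receptor) had 3, and Flt1, Egfl7 and Sox17 had 2 each. The best Tek member, in an intron, had folds of 5.02, 6.02, 6.96 and 5.82. TGF-beta and BMP genes had 15 members (6.70% of their regions, against 3.81% of all), VEGF and angiopoietin genes 13 (5.49%), and extracellular matrix and integrin genes 12 (6.45%). Of their regions open in all 4 old libraries, 17.9%, 14.1% and 16.7% were members, near the 14.8% over all such regions. Barrier and transport genes had 10 (5%, and 12.5% of those open in all 4 old libraries), including 2 each at Ocln (a tight junction protein), Abcg2 (an efflux pump) and Slco1a4 (an organic anion transporter).

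Lists tied to inflammation and stress had 3 to 8 members each, and their shares of the regions open in all 4 old libraries lay below the 14.8% over all such regions. The leukocyte adhesion and NF-kB list had 7 members (5.6% of its regions, against 3.81% of all regions, and 13.5% of those open in all 4 old libraries), 4 of them at Vcam1, the adhesion receptor for leukocytes. The Vcam1 member within the gene, 251 bp from the TSS, had folds of 4.196 and 4.07 in old WT Cre and 5.23 and 5.85 in old EC-K4KO, and the nearest young peak was 23844 bp away. The oxidative and hypoxic stress list had 7 (4.90% and 12.1%), 4 of them at Epas1 (the hypoxia factor of endothelium). The senescence and cell cycle arrest list had 7 (4.49% and 10.6%), including 1 at Cdkn2b and 3 at Foxo1. The AP-1 and immediate early list had 8 (5.33% and 9.30%) and the interferon and MHC class I list 3 (6.38% and 9.68%). The list of KLF family genes and genes of their upstream pathway had 9 (4.27% and 10.1%), all nearest to KLF family genes. Of these, 2 were intergenic regions 129674 bp and 138009 bp upstream of Klf4. Housekeeping genes had 3 (5.17% of 58 regions, and 3 of the 30 open in all 4 old libraries).

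**Figure D4:**
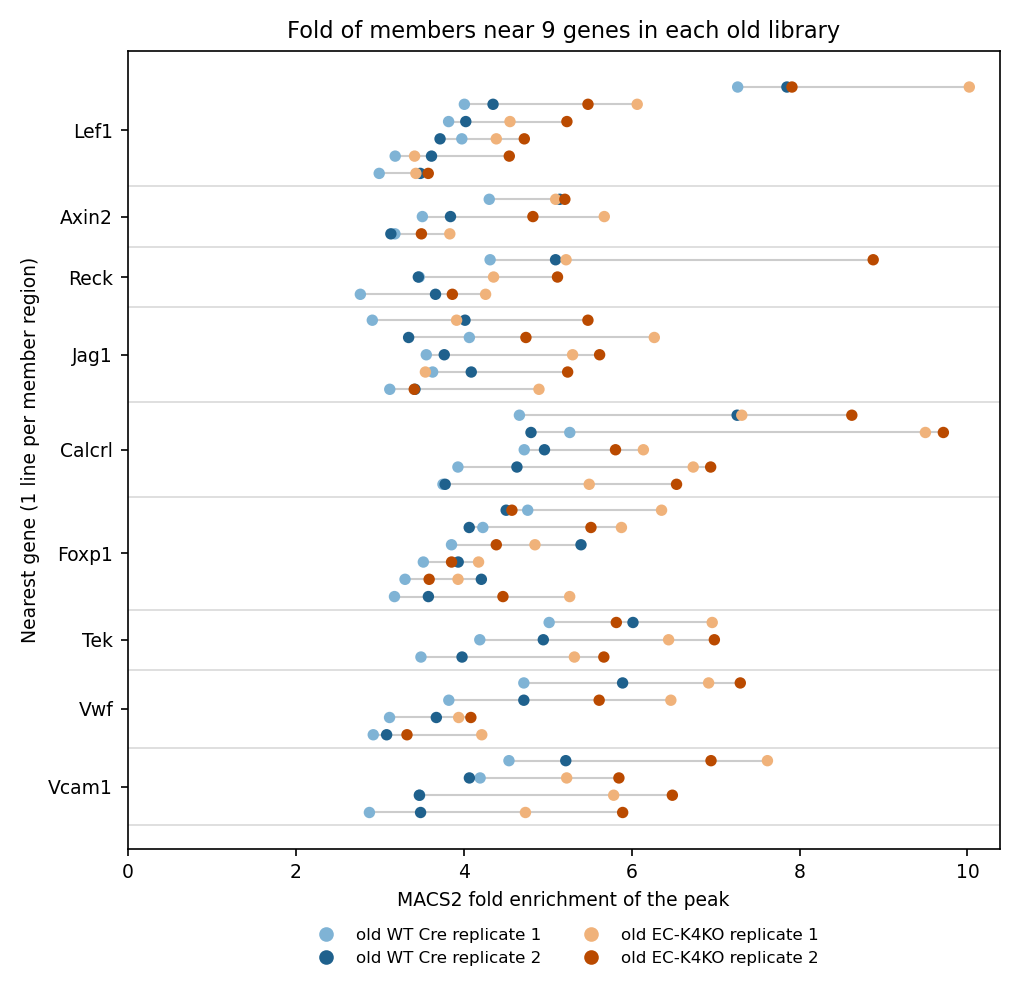
Fold of each member (x axis, peak signal over local background, linear from 0) near 9 genes (y axis, 1 line per member, ordered by rank within a gene), with 1 point per old library. The best Lef1 member runs from 7.26 to 10.02 and stands above the other 5, while the 5 Calcrl members are higher in both old EC-K4KO libraries than in both old WT Cre libraries, as 71.0% of all 23788 regions were, and range from -0.07 to 0.56 (log2) after centring.

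Genes of other brain cells were checked in the same lists. Of the 20 endothelial genes, 17 had a promoter peak in each old library and 9 to 16 in the young ones. None of the 15 microglial and none of the 10 neutrophil genes had a promoter peak in any library, and neither list had a member. Pericyte and mural promoters had no peak in the young libraries and 0, 3, 6 and 3 of 15 in the old ones, and astrocyte promoters had 0 to 2 of 15 in young and 2 to 4 in old. The astrocyte list had 8 members (7.92% of its regions, against 3.81% of all regions). Of its 23 regions open in all 4 old libraries, 34.8% were members, against 14.8% over all such regions and 33.0% for the Wnt list. The pericyte, oligodendrocyte and neuron lists had 1 member each. Whether other cell types contributed to the members was not tested. The Klf4 gene held a peak in all 9 libraries, and the peak was stronger in the libraries labelled EC-K4KO. Its fold was 4.05 and 4.62 in young WT Cre, 4.51 and 5.38 in old WT Cre, 6.15, 7.84 and 7.49 in young EC-K4KO, and 6.89 and 6.78 in old EC-K4KO. These folds are as deposited and were not centred. Both old EC-K4KO folds exceeded both old WT Cre folds in 71.0% of all 23788 regions open in the 4 old libraries. The peak lists therefore do not show the deletion, and whether this peak lies within the deleted part was not tested.

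Sequence composition was compared in windows of 300 bp at the centre of each region or peak. Member regions had a mean GC content of 49.5%, against 50.6% over all regions and 56.2% in regions of all 4 old and 1 to 4 young libraries. Repeats covered 12.02% of member windows, against 19.8% over all regions and 9.08% in regions of all 4 old and 1 to 4 young libraries. Within libraries the repeat difference was -0.261 ± 2.88 points, higher in members in 3 of 4 libraries and lower in old WT Cre replicate 1 (exact permutation p = 1, adjusted p = 1). Within libraries, member peaks had 49.8% and 49.7% GC in old WT Cre and 49.7% and 49.6% in old EC-K4KO, and other peaks had 52.9%, 55.5%, 53.9% and 54.2%. The difference was -4.44 ± 1.08 points (SD, n = 4, exact permutation test, p = 0.13, adjusted p = 0.14), and -2.04 with promoters left out. Against regions of no young and 1 to 3 old libraries it changed sign, to 1.06 points higher in members.

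The SOX pattern was the one that differed most in favour of the members. It was found in 29.3% of member regions and in 23.1% of all regions. Within libraries it was present in 30.4%, 29.8%, 29.9% and 29.7% of member peaks, against 22.0%, 20.9%, 23.4% and 23.6% of other peaks. Member peaks were higher in 4 of 4 libraries, by 7.47 ± 1.33 points (exact p = 0.13, adjusted p = 0.14, permutation of signs). The difference stayed between 3.91 and 9.94 points under 8 alternatives that changed the comparison peaks, the window or the rank. SOX factors such as SOX17 and SOX18 act in ECs. The SOX pattern, ACAAAG or CTTTGT on the other strand, shares the letters CTTTG with the TCF/LEF pattern CTTTGAT. A match is therefore not evidence of which factor binds.

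Other patterns were also more frequent in member peaks. IRF (GAAANNGAA), read by interferon regulatory factors, was higher by 3.71 ± 0.409 points, NFI by 3.36 ± 0.395, TCF/LEF by 2.51 ± 0.232 and FOX by 2.27 ± 0.347 (all exact permutation p = 0.13, adjusted p = 0.14, 4 of 4 libraries). Over whole regions the shares were 11.7% of members and 8.35% of all regions for IRF, 10.3% and 7.05% for NFI, 7.50% and 5.03% for TCF/LEF and 6.96% and 4.45% for FOX. All 4 patterns were higher in 4 of 4 libraries under each of the 8 alternatives, as were SOX and TEAD. TEAD was found in 18.1% of members and 16.2% of all regions, GATA in 14.1% and 12.5%, NF-kB in 9.12% and 6.44% and SPI1 in 4.55% and 2.96%. ETS of the ERG type was found in 8.84% and 5.21%. That difference was 2.21 ± 0.583 points within libraries and 0.0859 points against regions that young libraries share, with promoters left out. Against regions of no young and 1 to 3 old libraries, TEAD differed by only 0.341 points, higher in 4 of 4 libraries. GATA differed there by 0.0278 points, higher in 2 libraries and lower in 2.

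AP-1 (TGANTCA), the site of FOS and JUN factors, was the one pattern of 21 with a lower mean in member peaks in the main comparison and in all 8 alternatives. Against regions of no young and 1 to 3 old libraries, AP-1 was lower in 3 libraries and higher in 1 (mean -1.93 points). It was present in 10.1%, 10.1%, 10.05% and 9.53% of member peaks and in 10.6%, 11.5%, 12.7% and 12.6% of other peaks, a difference of -1.87 ± 1.21 points (exact permutation p = 0.13, adjusted p = 0.14). With promoters left out, it was in 9.93% of member regions and 14.8% of regions of all 4 old and 1 to 4 young libraries. Patterns that mark GC-rich promoters were lower as well, namely SP (GGGCGG) by 14.1 ± 3.83 points, ETS of the promoter type (CCGGAAG) by 3.90 ± 0.848 and NRF1 (GCGCNTGCG) by 3.59 ± 0.695. Their direction turned against regions of no young and 1 to 3 old libraries. SP was in 13.8% of members and 15.1% of all regions. The KLF pattern (CCNCACCC) was in 15.1% of member and 14.9% of other peaks, a difference of 0.151 ± 0.942 points (exact permutation p = 0.875, adjusted p = 0.910), and the direction varied with the comparison. The other patterns searched were CTCF (CACNAGGGG), in 2.84% of members and 1.84% of all regions, MEF2 (CTATTTNTA) in 2.30% and 1.51%, and the E-box (CAGCTG) in 20.4% and 17.99%. RUNX (TGTGGTT) was in 6.02% and 5.88%, the glucocorticoid element GRE (ACANNNTGT) in 9.12% and 9.19%, and the cyclic AMP element CRE (TGACGTCA) in 0.426% and 0.696%. For ETS of the promoter type, NRF1 and KLF the shares were 3.61% and 4.01%, 0.852% and 1.88%, and 14.9% and 11.7%.

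**Figure D5:**
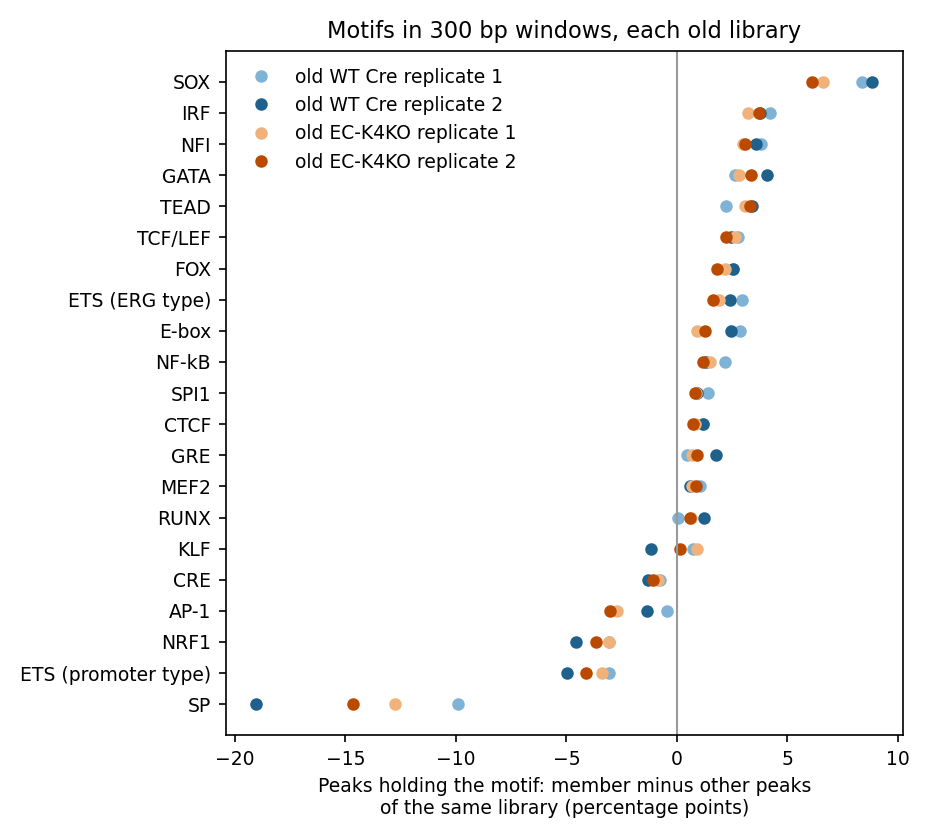
Difference between member peaks and other peaks of the same old library in the share of 300 bp windows holding each of 21 motifs (x axis, percentage points), with 1 point per old library and a line at 0. SOX lies farthest to the right in all 4 libraries (mean 7.47) and SP farthest to the left (mean -14.1), while KLF has points on both sides of 0.

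Genotype was compared within old age, where the rule asked for a peak in old EC-K4KO and old WT Cre libraries alike. What the rule left out was uneven by genotype. Of the 3355 regions kept out by a single young library, young EC-K4KO replicates 3 and 2 accounted for 2129 and 1037. Of the 3891 regions with no young peak and a peak in 3 old libraries, 1951 and 1464 lacked one in old WT Cre replicates 2 and 1. How this choice shaped the member values below was not tested. The median fold of member peaks was 3.54 and 4.07 in old WT Cre and 4.81 and 5.05 in old EC-K4KO, so the groups did not overlap. The means were 3.804 ± 0.374 and 4.93 ± 0.168 (SD, n = 2 each, two-sided exact permutation p = 0.333, which is the smallest p that 2 against 2 allows). The ratio of the means was 1.30 for member peaks and 1.22 for all other peaks of the lists. Member peaks were 292 and 296 bp wide in old WT Cre and 371 and 375 bp in old EC-K4KO, a difference of 79 bp, against 24.5 bp for other peaks (exact permutation p = 0.333). As deposited, both old EC-K4KO folds exceeded both old WT Cre folds in 2357 members (67.0%, against 71.0% of all 23788 regions) and both were lower in 101 (2.87%, against 2.38%).

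Single regions were then tested with limma on log2 folds centred on each library's median, across all 23788 regions with a peak in all 4 old libraries. No region passed an adjusted p of 0.05 (0 of 23788, 0%), and so 0 of the 3520 members did, with a smallest adjusted p of 0.0596. At an unadjusted p under 0.05, 382 members were higher in old EC-K4KO (10.9%, against 6.41% of all regions) and 440 were lower (12.5%, against 13.7%). The balance turned with the setting. With quantile normalization, 456 members were higher (12.95%, against 8.28% of all regions) and 258 were lower (7.33%, against 8.4%). With weaker regions left out (1343 members tested), 292 were higher (21.74%, against 7.52%) and 79 were lower (5.88%, against 12.87%). On -log10 p, 194 were higher (5.51%, against 5.3%) and 687 were lower (19.52%, against 10.01%). Without centring, where the overall higher fold of the old EC-K4KO libraries stays in, limma called 869 members, 859 of them higher, among 4314 regions called, 4288 of them higher. Other settings called between 0 and 106 members among 0 to 433 regions. The median of the centred difference was -0.01 for members and -0.08 for all regions (log2).

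The lowest centred differences lay near Pfdn1, Rgs3, Klf3, Gm5148 and Slc39a11, from -1.20 to -0.997. The Klf3 member, 61383 bp from the TSS of that KLF family gene, had folds of 5.35 and 7.97 in old WT Cre and 4.05 and 3.86 in old EC-K4KO (log2 difference -1.10, SE 0.157, adjusted p = 0.0596 by limma). The Rgs3 member, in an intron of a regulator of G protein signalling, had folds of 5.91 and 6.90 against 4.15 and 3.43 (-1.14, SE 0.141, adjusted p = 0.0596 by limma). In each, both old EC-K4KO values lay below both old WT Cre values as deposited, as in 2.38% of all 23788 regions. Both members were picked for their low differences, so this describes that choice. The highest differences lay near Gm18409, 6530402F18Rik, Hdac8, Gm10389 and Nron, from 0.80 to 0.90. The Hdac8 promoter had folds of 3.49 and 3.30 in old WT Cre and 6.05 and 10.1 in old EC-K4KO (0.83, SE 0.213, adjusted p = 0.107 by limma). The Gm18409 promoter had 3.28 and 3.74 against 7.64 and 9.35 (0.90, SE 0.139, adjusted p = 0.0596 by limma).

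None of the members near the genes described above passed the adjusted threshold. The 6 Lef1 members ranged from -0.26 to 0.09 and the 4 Vwf members from -0.13 to 0.13, with adjusted p of 0.275 or more in limma. The Vcam1 members ranged from 0.04 to 0.44 and the smallest adjusted p among them was 0.142 (limma). The better-ranked of the members upstream of Klf4 had folds of 4.42 and 4.50 in old WT Cre and 3.88 and 3.62 in old EC-K4KO, a centred difference of -0.63 (SE 0.130, adjusted p = 0.0831 by limma).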

How the data were processed

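The peak lists of 9 Omni-ATAC-seq libraries were used. By the study's methods, adapters were removed by the authors with TrimGalore, reads were aligned by Bowtie2 to mm10 (GRCm38), pairs that were duplicates or mapped poorly were dropped, and MACS2 called broad peaks on fragments. Peak names show 1 call per library, without pooling. The deposited lists give a score, a fold (a ratio to local background), a -log10 p and a -log10 q, and end at a q near 0.1. The deposited annotation gives a class, a gene and a distance to the TSS in bp. Read counts were not used here, so depth is unknown, intervals that need it are not given, and the DiffBind test of the authors could not be rerun.

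Peaks sharing 1 bp were merged, and members, comparison peaks and ranks by -log10 p were derived in Python 3.11.15 (pandas 2.3.3, numpy 2.4.6). A merged region took its class, gene and distance from its strongest peak. Sequence came from GRCm38, and 21 motifs were searched on both strands. Member and other peaks of a library were compared by an exact sign-flip test over 4 libraries with Benjamini-Hochberg adjustment over 26 measures. Old genotypes were compared by exact permutation of 2 against 2 libraries and by limma 3.58.1 (R 4.3.3) on median-centred log2 fold over 23788 regions, with Benjamini-Hochberg adjustment. Scripts were tested on simulated data. Named members were the 10 best by mean rank, the best of each class, the widest, those near the genes with most members or near listed genes, and the 5 highest and 5 lowest genotype differences. The members and gene lists were chosen with earlier results of these data known. Alternatives changed the q limit, list length, merging, comparison peaks, windows, scaling and libraries.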

Additional observations from a re-analysis of the deposited data

How the results depend on the processing

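The number of regions that met the rule was 3809 and 4070 at a q under 0.05 and 0.01, and 2512 when the latter limit applied to old lists alone. It was 128 with all lists cut to the length of the shortest, 2185 with old lists cut to the longest young list, 5608 without merging (stretches of at least 100 bp) and 1 under the mirror rule. Leaving out 1 library gave 3529 to 5652. Against regions of no young and 1 to 3 old libraries, the differences reversed for promoter-TSS share (2.86 points), intergenic share (-6.00), GC content (1.06), ETS promoter type (1.35), CRE (0.0081), SP (5.94), NRF1 (0.421), GRE (-1.42) and RUNX (-0.615). Against regions of all 4 old and at least 1 young library, repeat content (3.60) and KLF (-2.79) reversed. In 500 bp windows these were 0.0237 and -0.262. With 1 old library left out, repeat content ran from -0.819 to 1.18 (highest without old WT Cre replicate 1) and KLF from -0.106 to 0.591 (below 0 without replicate 1 of either genotype). GRE was -0.0170 within 10% steps of the list and -0.249 with promoters left out. With promoters left out as well (chosen after seeing the data), repeat content (2.26), SPI1 (-0.0221), KLF (-2.15) and NF-kB (-0.312) reversed against shared regions, and GRE (-0.373) and RUNX (-0.0707) within these steps. The cause of these reversals was not tested.

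In limma, members called were 869 without centring, 106 on log2 of -log10 p, 31 with an intensity trend and 0 to 16 when 1 old library was left out (15 without old EC-K4KO replicate 1, 16 without replicate 2). Of all regions, 4314, 349, 119 and 0 to 42 were called. The 5 lowest and 5 highest genotype differences kept their direction. A replicate block called 105 members and 433 regions, although the labels do not say that replicate numbers mark a pair or a batch, and same-numbered deviations correlated at r = 0.0628 with only 2 pairs. With the replicate block the difference in median fold was unchanged at 1.13 (exact p = 0.5, the smallest that 2 pairs allow). The difference in median rank was -2.76 points and ran from -10.4 to 4.87 when 1 library was left out.

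Lists of 6157 to 45026 peaks limit what absence from a young list shows. Whether the members are closed in young cells cannot be read from peak calls, and depth was not available to set a limit.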
